A study of Mus musculus with 2 samples.

Results

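Keratins are the intermediate filament proteins of epithelial cells, and 7 of their genes, most of them known from simple (single-layered) epithelia, are described here in AML12 cells with and without forced expression of the long noncoding RNA H19: Krt7, Krt8, Krt18, Krt19, Krt20, Krt23 and Krt80. They were chosen by gene name, with earlier results of these data known. All 7 had a row among the 21145 genes of the deposited table of both libraries. The Over19 group was 1 library of AML12 cells, taken from its title as the line infected with a lentivirus expressing H19. The Ctrl group was 1 library of AML12 cells, taken as the line infected with the control virus. AML12 is a nontumorigenic mouse hepatocyte line, labelled with the strain CD1/MT42, a mouse line that carries a transgene for human transforming growth factor alpha. Both lines therefore share that transgene, the lentiviral infection, puromycin selection, and passages 14 to 16. They were kept under puromycin in DMEM with serum, whereas the parental cells were grown in DMEM/F12 with insulin, transferrin, selenium and dexamethasone. The promoter that drives H19, and whether each line was a clone or a pool, are not stated in the labels.

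With 1 library per group no value below has a replicate error and no test was run, so each difference describes these 2 libraries. Levels are in FPKM, which by its name is fragments per kilobase of transcript, scaled to mapped fragments. The program behind the values is not named, so how the 2 libraries were scaled to each other is unknown. The log2 difference is log2(FPKM + 1) in the Over19 library minus the same in the Ctrl library. A gene is called measured where the mean of its 2 FPKM values was at least 1, and at least 2-fold different where that log2 difference was at least 1 in size. H19 itself was at 4.72 FPKM in the Over19 library and was listed at 0 in the Ctrl library. Of 11674 measured genes, the median log2 difference was 0.08, and 5% lay below -0.65 and 5% above 0.70. The labels and tables hold no read totals, so the counting error of each value is unknown. In bulk RNA, fewer cells that express a keratin and less keratin RNA per cell cannot be told apart.

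A keratin filament is built from heterodimers of an acidic type I and a basic type II keratin, and a keratin protein without its partner is degraded. Keratins 8 (type II) and 18 (type I) are the pair of adult hepatocytes, where the filaments protect the cell against mechanical and toxic stress. Bile duct cells add keratins 7 (type II) and 19 (type I), and these are widely used as markers of the biliary and progenitor state in liver. Keratin 20 (type I) is known from intestinal epithelium and urothelium, keratin 23 (type I) from digestive epithelia and their tumours, and keratin 80 (type II) from a broad range of epithelia, where it lies near desmosomes.

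The keratins were mostly lower in the Over19 library, and Krt7 stood furthest from the rest. Of the 7 genes 6 were measured, and 5 of these 6 had a log2 difference below 0, where 41.1% of all measured genes did. At least 2-fold lower was 1 of the 6, Krt7, against a background of 1.57% of measured genes, and 0 were at least 2-fold higher, against 1.14%. The median log2 difference of the 6 was -0.44. From high to low FPKM, the order was the same in both libraries: Krt8, Krt18, Krt19, Krt20, Krt7, Krt80 and Krt23. Without replicates it is unknown which neighbours in that order differ beyond their spread.

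**Figure D1:**
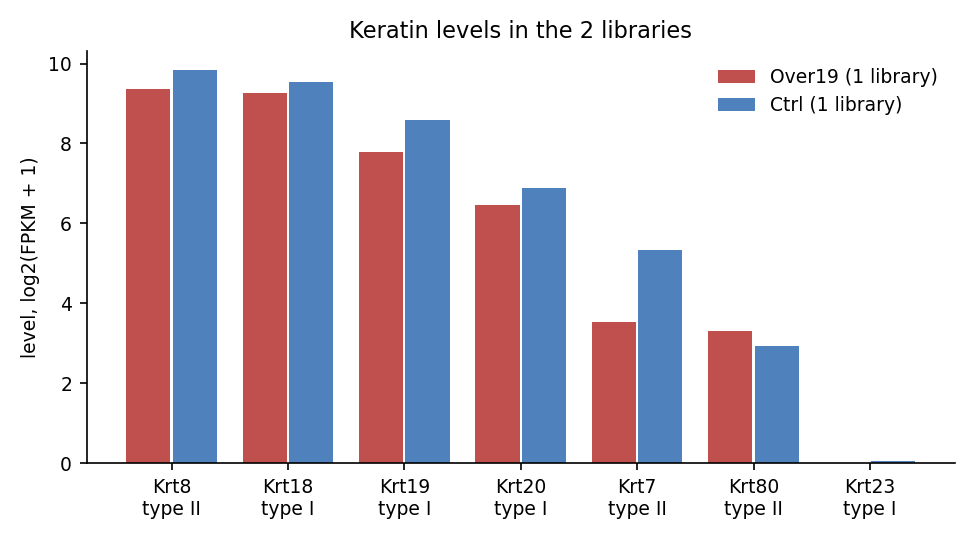
Level of each keratin as log2(FPKM + 1) on the vertical axis, with the Over19 library in red on the left and the Ctrl library in blue on the right of each pair; each bar is 1 library, so there are no error bars. The Over19 bar is the shorter of the 2 for Krt8, Krt18, Krt19, Krt20 and Krt7 and the taller for Krt80, and Krt23 is at or near 0 in both.

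The hepatocyte pair was the most abundant. Krt8 (ENSMUSG00000049382, minus strand of chromosome 15, 101996711 to 102004342, GRCm38) was at 658 FPKM in the Over19 library and 909 FPKM in the Ctrl library. This is 27.6% lower in the Over19 library, a log2 difference of -0.46. Of the measured genes, 9.39% had a lower difference. Krt18 (ENSMUSG00000023043, plus strand of chromosome 15, 102028216 to 102032026), its filament partner and its neighbour on the chromosome, was at 609 FPKM in the Over19 library and 743 FPKM in the Ctrl library. The log2 difference of Krt18 was -0.29, the smallest in size of the 5 lower keratins, and 17.4% of measured genes lay below it. Both genes were among the most abundant of the cell in either library: by FPKM, Krt8 ranked 106 in the Over19 library and 64 in the Ctrl library among the 21145 genes, and Krt18 ranked 116 in the Over19 library and 85 in the Ctrl library. The ratio of Krt8 to Krt18 FPKM was 1.08 in the Over19 library and 1.22 in the Ctrl library. Reads of Krt8 can be shared with a processed pseudogene, Krt8-ps on chromosome 7, which was at 0.700 FPKM in the Over19 library and 0.847 FPKM in the Ctrl library, far below Krt8 itself.

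The 2 biliary keratins had the largest differences. Krt7 (ENSMUSG00000023039, plus strand of chromosome 15, 101411043 to 101430313) was at 10.6 FPKM in the Over19 library and 39.7 FPKM in the Ctrl library, which is 3.75-fold lower in the Over19 library. Its log2 difference was -1.81, and 29 of the 11674 measured genes, or 0.248%, had a lower one. In the order of all genes by FPKM Krt7 stood far lower in the Over19 library, with rank 6778 in the Over19 library and rank 2052 in the Ctrl library. Krt19 (ENSMUSG00000020911, minus strand of chromosome 11, 100140810 to 100148665) was at 219 FPKM in the Over19 library and 382 FPKM in the Ctrl library. With a log2 difference of -0.80, or 1.74-fold lower, Krt19 did not reach the 2-fold rule, and 3.11% of measured genes lay below it. Krt19 was an abundant transcript in both libraries, with rank 294 in the Over19 library and 169 in the Ctrl library. The ratio of Krt7 to Krt19 FPKM was 0.0483 in the Over19 library and 0.104 in the Ctrl library.

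In the authors' deposited table of differences Krt7 is the only keratin. The authors' deposited table gives it a log2 ratio, without a pseudocount, of -1.91, with a p-value and a q-value that are both printed as 0. The test behind it is not named in the labels or the table, and with 1 library per group it cannot include the spread between cultures. The authors' deposited table lists 561 genes, 2.65% of the 21145, and its smallest finite log2 ratio is 1.00 in size; the other 5 measured keratins differed by less than that in FPKM.

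Krt20 (ENSMUSG00000035775, minus strand of chromosome 11, 99428403 to 99438150) was at 87.4 FPKM in the Over19 library and 117 FPKM in the Ctrl library, a log2 difference of -0.41. By FPKM this intestinal and urothelial keratin was more abundant than Krt7 in both libraries. Krt80 (ENSMUSG00000037185, minus strand of chromosome 15, 101349571 to 101370125) went the other way, at 8.85 FPKM in the Over19 library and 6.67 FPKM in the Ctrl library. Its log2 difference of 0.36 was under the 2-fold rule, and 22.5% of measured genes had a higher one. Krt80 and Krt7 lie next to each other on chromosome 15 among the listed genes, and the ratio of Krt80 to Krt7 FPKM was 0.837 in the Over19 library and 0.168 in the Ctrl library. Krt23 (ENSMUSG00000006777, minus strand of chromosome 11, 99477974 to 99493137) was listed at 0 in the Over19 library and at 0.0399 FPKM in the Ctrl library, and was not measured.

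**Figure D2:**
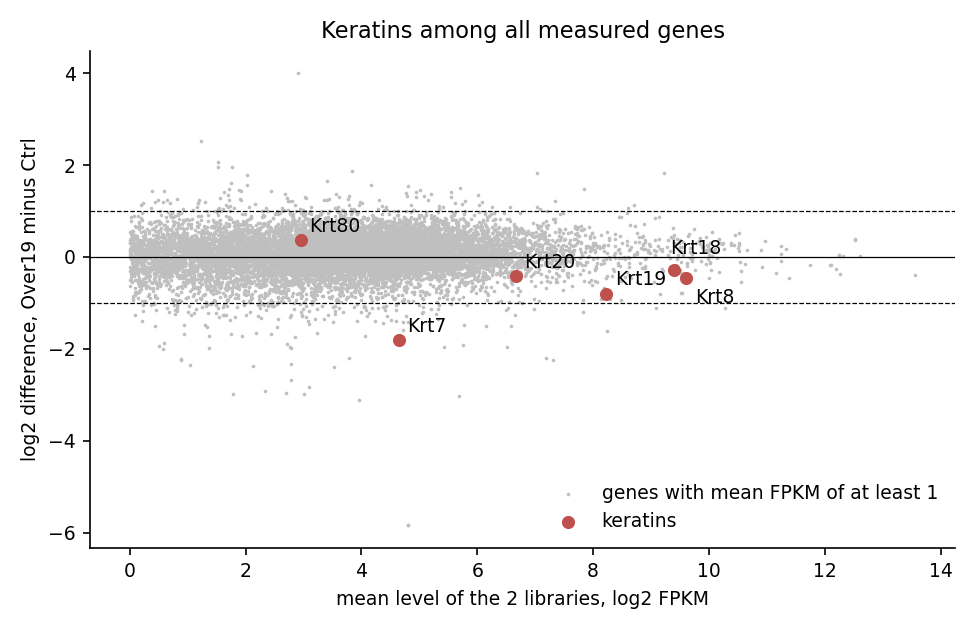
Log2 difference (Over19 minus Ctrl, vertical axis) against the mean level of the 2 libraries (log2 FPKM, horizontal axis) for the 11674 measured genes in grey and the 6 measured keratins in red; dashed lines mark a 2-fold difference. Krt7, at -1.81, lies outside the dashed lines, and the other 5 keratins, from -0.80 for Krt19 to 0.36 for Krt80, lie between them.

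The promoters of the lower keratins are shown because those genes were lower together and lie on 2 chromosomes. RefSeq promoters (250 bases before to 50 after the gene start, GRCm38.p6, written in the gene's own direction) were found for 5 of the 7 genes, Krt7, Krt8, Krt18, Krt20 and Krt23. Those of the 4 measured genes among them follow, Krt7 at chr15:101412153-101412452 (plus strand), Krt8 at chr15:102004293-102004592 (minus strand), Krt18 at chr15:102027966-102028265 (plus strand) and Krt20 at chr11:99438104-99438403 (minus strand). Capitals mark the letters TATAAA (the TATA box, where transcription can be positioned), GGGCGG (the GC box, bound by Sp1 and related factors) and CCACCC (the CACC box, bound by Krüppel-like factors), on either strand; TATAAA on both strands overlaps in Krt8.
Krt7: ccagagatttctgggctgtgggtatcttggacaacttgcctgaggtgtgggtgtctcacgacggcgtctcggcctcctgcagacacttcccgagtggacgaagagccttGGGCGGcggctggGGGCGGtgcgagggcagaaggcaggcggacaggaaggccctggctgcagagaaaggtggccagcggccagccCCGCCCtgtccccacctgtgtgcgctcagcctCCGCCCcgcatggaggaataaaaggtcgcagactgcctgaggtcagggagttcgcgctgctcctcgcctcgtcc
Krt8: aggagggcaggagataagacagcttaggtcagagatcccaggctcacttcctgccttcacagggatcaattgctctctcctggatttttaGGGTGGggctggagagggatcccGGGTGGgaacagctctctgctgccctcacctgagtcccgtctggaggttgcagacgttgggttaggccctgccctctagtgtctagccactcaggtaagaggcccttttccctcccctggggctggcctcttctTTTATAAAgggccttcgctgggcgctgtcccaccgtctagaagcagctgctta
Krt18: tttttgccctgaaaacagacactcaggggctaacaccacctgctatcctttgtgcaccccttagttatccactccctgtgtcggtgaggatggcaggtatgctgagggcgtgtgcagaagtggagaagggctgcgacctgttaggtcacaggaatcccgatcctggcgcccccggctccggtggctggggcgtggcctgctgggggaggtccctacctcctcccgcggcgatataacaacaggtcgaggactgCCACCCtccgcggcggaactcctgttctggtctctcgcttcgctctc
Krt20: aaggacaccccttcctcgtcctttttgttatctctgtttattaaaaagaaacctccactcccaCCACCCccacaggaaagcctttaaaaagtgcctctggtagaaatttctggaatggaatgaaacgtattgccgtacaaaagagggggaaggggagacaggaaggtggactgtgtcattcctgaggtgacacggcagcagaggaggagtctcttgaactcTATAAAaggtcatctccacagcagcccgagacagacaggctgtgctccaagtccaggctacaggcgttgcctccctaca

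The 4 promoters did not share a motif among those searched. Krt7, whose RefSeq start lies inside its deposited locus, held 4 GC boxes, with their first bases at -141, -128, -56 and -24 relative to the gene start, and none was found in the other 4 windows; 35.7% of all 32851 promoters in the table hold at least 1. The letters TATAAA were found in Krt8 and Krt20, against 13.6% of all promoters. In Krt20 their first base is at -29. In Krt8 the first bases are at -3 and -1, so these letters run across the gene start. A CACC box was found in Krt8, Krt18 and Krt20, against 31.5%. CCAAT (the CCAAT box, in 37.4% of all promoters), TGANTCA (the AP-1 site, in 7.81%) and AACAAT (a SOX element, in 10.7%) were searched on both strands too, and these letters were in none of the 5 windows.

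Summed over the 7 genes, keratin transcripts were at 1593 FPKM in the Over19 library and 2197 FPKM in the Ctrl library, 27.5% lower in the Over19 library. They made up 0.308% of all FPKM in the Over19 library and 0.444% in the Ctrl library. The 2 types were lower to a similar extent. Type I keratins (Krt18, Krt19, Krt20 and Krt23) summed to 915 FPKM in the Over19 library and 1242 FPKM in the Ctrl library, 26.3% lower, and type II keratins (Krt7, Krt8 and Krt80) to 678 FPKM in the Over19 library and 955 FPKM in the Ctrl library, 29.1% lower. The ratio of type I to type II was 1.35 in the Over19 library and 1.30 in the Ctrl library.

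What differed more was the make-up of the sum. Krt8 held 41.3% of it in the Over19 library and 41.4% in the Ctrl library. Krt18 held 38.2% in the Over19 library and 33.8% in the Ctrl library, so the hepatocyte pair together made up 79.5% in the Over19 library and 75.2% in the Ctrl library. The biliary keratins held less: Krt19 was at 13.7% in the Over19 library and 17.4% in the Ctrl library, and Krt7 at 0.664% in the Over19 library and 1.81% in the Ctrl library. Krt20 was at 5.49% in the Over19 library and 5.31% in the Ctrl library, and Krt80 at 0.556% in the Over19 library and 0.304% in the Ctrl library.

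**Figure D3:**
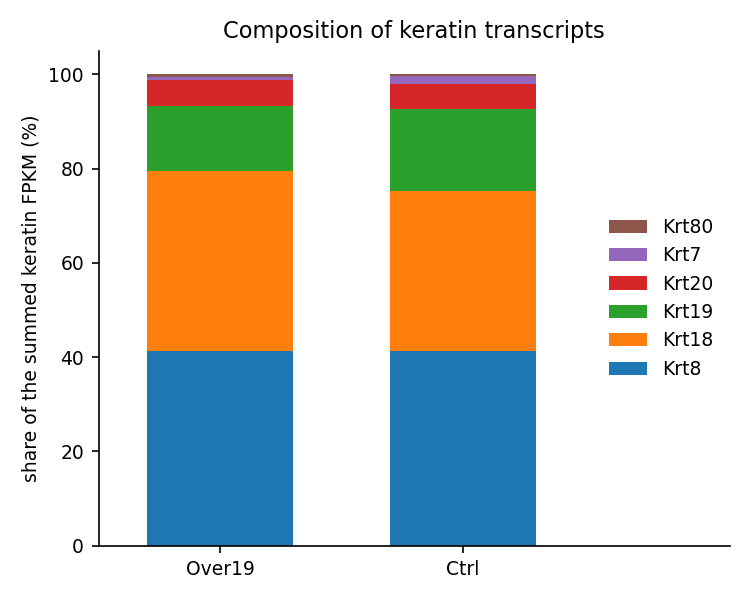
Share of each keratin in the summed keratin FPKM (vertical axis, percent), with the Over19 library on the left and the Ctrl library on the right; each column is 1 library, and Krt23, at or near 0, is not drawn. Krt8 and Krt18 make up 79.5% of the column in the Over19 library and 75.2% in the Ctrl library, and the Krt19 and Krt7 segments are narrower in the Over19 library.

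The rest of the keratin family was near 0. Of 21 keratin genes with a row, only 6 were measured, and all 6 belong to the 7 described here. The other 14 summed to 1.61 FPKM in the Over19 library and 1.45 FPKM in the Ctrl library, so the 7 genes held 99.9% of the keratin FPKM in each. Krt10, a keratin of the upper epidermis, was the highest of the 14, at 1.16 FPKM in the Over19 library and 0.787 FPKM in the Ctrl library, with a gene model listed at the same locus that can share its reads. Krt12 was at 0.302 FPKM in the Over19 library and 0.204 FPKM in the Ctrl library. The remaining 12 were under 0.2 FPKM in both libraries, among them the basal epidermal keratins Krt5, at 0.0176 FPKM in the Over19 library and 0.0169 FPKM in the Ctrl library, and Krt14, at 0.0223 FPKM in the Over19 library and 0.117 FPKM in the Ctrl library.

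The keratins lie in 2 gene clusters, and the genes flanking those clusters went both ways. Of the 5 nearest listed genes on each side of the 2 clusters, 13 of 20 were measured, 6 of them lower and 7 higher in the Over19 library, and 0 were 2-fold different. With the upper quartiles of all measured genes made equal, 7 were lower and 6 higher. Beside the chromosome 15 cluster, Eif4b, a translation initiation factor gene next to Krt18, was at 162 FPKM in the Over19 library and 212 FPKM in the Ctrl library. Soat2, which esterifies cholesterol, was at 13.6 FPKM in the Over19 library and 7.29 FPKM in the Ctrl library, a log2 difference of 0.82. Beside the chromosome 11 cluster, Smarce1, a chromatin remodelling subunit, was at 35.7 FPKM in the Over19 library and 42.6 FPKM in the Ctrl library, and Eif1, another translation initiation factor, at 542 FPKM in the Over19 library and 394 FPKM in the Ctrl library.

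**Figure D4:**
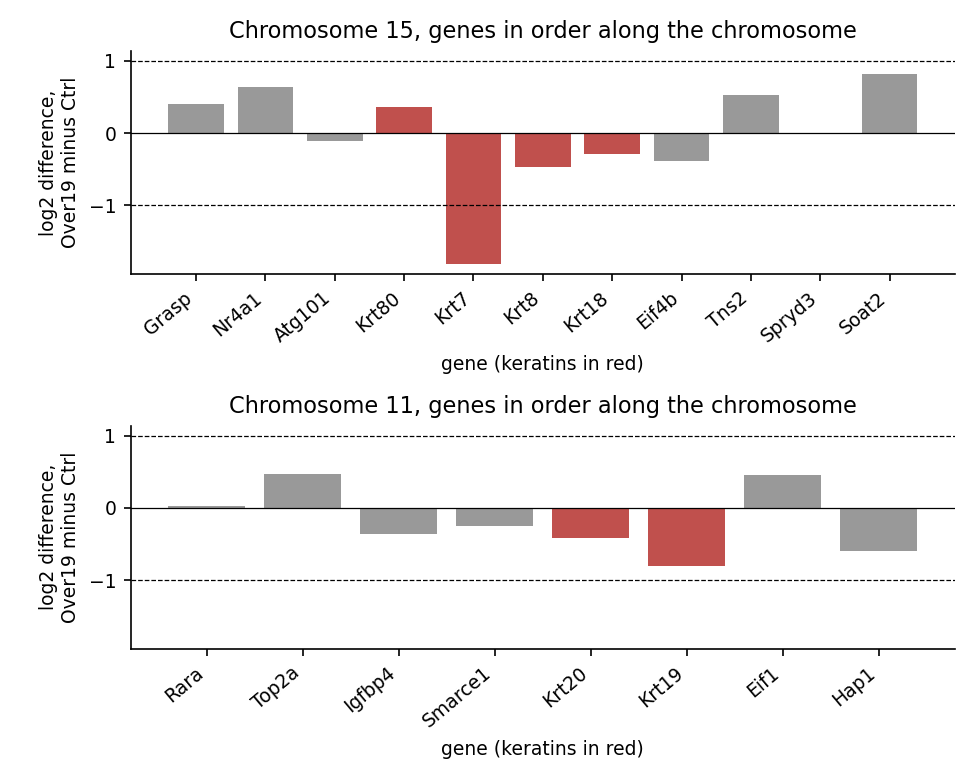
Log2 difference (Over19 minus Ctrl, vertical axis) of the measured keratins in red and the measured genes among the 5 nearest on each side of each cluster in grey, in their order along chromosomes 15 (top) and 11 (bottom); dashed lines mark a 2-fold difference. Krt7 is the only bar past a dashed line, and Krt80 beside it points up.

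The measured genes of desmosomes and cytolinkers, several of whose proteins anchor keratins at the cell surface, were all lower in the Over19 library. This list and those below were chosen with earlier results of these data known, so their counts only describe them. Of 19 listed genes 12 were measured and 12 were lower, where 41.1% of all measured genes were below 0. Their median log2 difference was -0.32, and 1 was at least 2-fold lower, against 1.57%. That one was Jup, which encodes plakoglobin, the armadillo protein of desmosomes and adherens junctions, at 22.8 FPKM in the Over19 library and 55.1 FPKM in the Ctrl library (log2 difference -1.24). Jup lies on chromosome 11 beyond the keratin cluster. Periplakin, Ppl, a cytolinker of the cell cortex, was at 9.32 FPKM in the Over19 library and 15.6 FPKM in the Ctrl library. Macf1, which links actin and microtubules, was at 22.4 FPKM in the Over19 library and 33.0 FPKM in the Ctrl library, and Perp, a desmosomal membrane protein, at 78.8 FPKM in the Over19 library and 107 FPKM in the Ctrl library. The 2 main anchors of keratin filaments differed less: plectin, Plec, had a log2 difference of -0.32 and desmoplakin, Dsp, one of -0.31. The list also holds Krtcap3, named as a keratinocyte-associated protein and not known as an anchor, at 2.21 FPKM in the Over19 library and 2.36 FPKM in the Ctrl library.

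Hemidesmosomes tie keratins to the basement membrane, and their 5 measured genes of 7 listed were all lower, where 41.1% of all measured genes were, and 0 of them were lower by 2-fold, against 1.57%. Their median was -0.50. Itgb4, the integrin subunit that binds plectin, was at 1.95 FPKM in the Over19 library and 4.27 FPKM in the Ctrl library, and its partner Itga6 at 33.5 FPKM in the Over19 library and 47.7 FPKM in the Ctrl library. Lamb3, which encodes a chain of a laminin that this integrin binds, was at 32.3 FPKM in the Over19 library and 50.7 FPKM in the Ctrl library. Lama3, another laminin chain gene of the list, was near 0, at 0.106 FPKM in the Over19 library and 0.127 FPKM in the Ctrl library. The tetraspanin Cd151 was at 87.9 FPKM in the Over19 library and 122 FPKM in the Ctrl library. Col17a1, the transmembrane collagen of the epidermal hemidesmosome, was near 0 in both libraries, at 0.0306 FPKM in the Over19 library and 0.0473 FPKM in the Ctrl library.

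Other intermediate filament genes went both ways. Of 15 listed 5 were measured, 3 higher and 2 lower, with a median of 0.39. That median was -0.0096 without the filter on low values. As TPM it was 0.022, where the filter of 1 was applied to TPM and let in lower genes. With TPM factors and the same 5 genes, the split stayed 3 higher and 2 lower. The 3 higher genes were the nuclear lamins, with Lmna at 179 FPKM in the Over19 library and 112 FPKM in the Ctrl library (log2 difference 0.67), Lmnb2 at 0.50 and Lmnb1 at 0.39 on the same scale. Vimentin, Vim, the filament of mesenchymal and many cultured cells, was at 421 FPKM in the Over19 library and 494 FPKM in the Ctrl library (log2 difference -0.23). Its level lay between those of Krt18 and Krt19 in both libraries. Desmin, Des, the muscle filament, was at 0.893 FPKM in the Over19 library and 3.43 FPKM in the Ctrl library. Des was the 1 member at least 2-fold lower, against 1.57% of all measured genes. It was measured only through its Ctrl value, so the filter itself favoured that call.

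Genes for proteins that bind, modify or clear keratins went both ways. Of 22 listed 19 were measured, 8 higher and 11 lower, 0 by 2-fold, with a median of -0.12. With equal upper quartiles the split was 5 higher and 14 lower and the median -0.22; the median was -0.28 as TPM and -0.25 with a mean FPKM of at least 5. Among the lower ones were genes whose products are found with keratin in Mallory-Denk bodies, the keratin aggregates of injured hepatocytes. The small heat shock protein Cryab was at 30.5 FPKM in the Over19 library and 58.5 FPKM in the Ctrl library. Transglutaminase Tgm2 was at 58.6 FPKM in the Over19 library and 98.8 FPKM in the Ctrl library. Hspa8, a constitutive chaperone, was at 414 FPKM in the Over19 library and 729 FPKM in the Ctrl library. Sqstm1, which encodes p62 and is a main protein of those bodies, went the other way, at 814 FPKM in the Over19 library and 526 FPKM in the Ctrl library. The 14-3-3 genes Ywhaz, Ywhae and Ywhaq, whose products bind phosphorylated keratin 18, had log2 differences from 0.10 to 0.14, close to the 0.08 of all measured genes.

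Of 26 transcription factors of simple epithelia 21 were measured, 12 higher and 9 lower, with a median of 0.09, next to the 0.08 of all measured genes. With equal upper quartiles 10 were higher and 11 lower. The members of AP-1, a dimer of Jun and Fos proteins, differed among themselves. Fos was at 0.696 FPKM in the Over19 library and 12.3 FPKM in the Ctrl library, whereas Jun was at 10.2 FPKM in the Over19 library and 3.79 FPKM in the Ctrl library and Fosl1 at 50.8 FPKM in the Over19 library and 27.9 FPKM in the Ctrl library. Ehf, an epithelial ETS factor, was at 5.88 FPKM in the Over19 library and 15.5 FPKM in the Ctrl library. Fos and Ehf were the 2 members at least 2-fold lower, against 1.57% of all measured genes, and Jun the 1 at least 2-fold higher, against 1.14%. Fos was measured only through its Ctrl value.

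**Figure D5:**
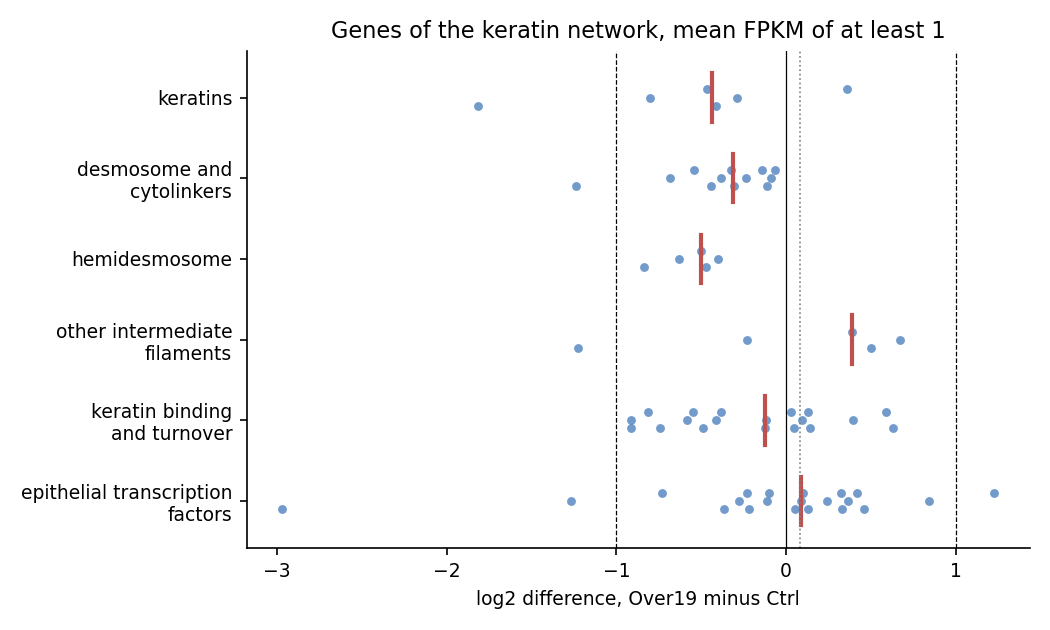
Log2 difference (Over19 minus Ctrl, horizontal axis) of each measured gene (blue point) in 6 gene lists, with the list median as a red bar, the median of all measured genes as a dotted line and a 2-fold difference as dashed lines; the height of points within a row carries no meaning. Points of the desmosome and cytolinker and the hemidesmosome lists all lie left of 0, while those of the other lists lie on both sides.

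The labelled cell type was checked against its markers. Of 12 hepatocyte genes 3 were measured, and all 3 were lower in the Over19 library, where 41.1% of all measured genes were. Their median log2 difference was -0.73, and that of the list was -0.051 without the filter on low values. Apob, the apolipoprotein of very low density lipoprotein, was at 104 FPKM in the Over19 library and 108 FPKM in the Ctrl library, and the liver transcription factor Hnf4a at 44.4 FPKM in the Over19 library and 74.4 FPKM in the Ctrl library. Serpina1a, which has close copies, was at 0.192 FPKM in the Over19 library and 2.12 FPKM in the Ctrl library. This is at least 2-fold lower, where 1.57% of measured genes were. Serpina1a was measured only through its Ctrl value, so the filter itself favoured its place among the lower genes. Albumin, Alb, was at 0.178 FPKM in the Over19 library and 0.990 FPKM in the Ctrl library, and the hepatocyte lectin receptor gene Asgr1 was listed at 0 in the Over19 library and at 0.0336 FPKM in the Ctrl library. Alb and Asgr1 are among the 9 of the 12 that were not measured. Only 10 of the 12 had a row, and Apoa2 and Tf were not found under those names, so their levels are unknown here. Of 12 bile duct and progenitor genes 5 were measured, 4 of them lower, where 41.1% of all measured genes were. All genes of that list with a row, measured or not, summed to 680 FPKM in the Over19 library and 1036 FPKM in the Ctrl library. Spp1, which encodes osteopontin, was at 222 FPKM in the Over19 library and 389 FPKM in the Ctrl library. Sox9, a biliary transcription factor, was at 11.1 FPKM in the Over19 library and 8.02 FPKM in the Ctrl library. Epcam, a surface marker of bile ducts, was near 0, at 0.0385 FPKM in the Over19 library and 0.0186 FPKM in the Ctrl library, although Krt19 and Krt7 were present.

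Markers of other keratin-bearing and of keratin-free cells had the following levels, and their part in the keratin values was not tested. Of 12 genes of stratified epithelium 1 was measured, Sprr1a, a cornified envelope protein, at 58.7 FPKM in the Over19 library and 93.0 FPKM in the Ctrl library, while Trp63 was at 0.00930 FPKM in the Over19 library and 0.00895 FPKM in the Ctrl library. Of 6 mesothelial genes 2 were measured, Msln, which encodes mesothelin, at 337 FPKM in the Over19 library and 465 FPKM in the Ctrl library, and Upk1b at 54.1 FPKM in the Over19 library and 69.4 FPKM in the Ctrl library. Mesothelial cells also carry Krt7, Krt8, Krt18 and Krt19. The mesothelial transcription factor gene Wt1 was at 0.0261 FPKM in the Over19 library and 0.180 FPKM in the Ctrl library. Of 11 mesenchymal genes only Vim and Des were measured. The genes of that list with a row, measured or not, summed to 423 FPKM in the Over19 library and 499 FPKM in the Ctrl library, nearly all of it Vim. Of 7 leukocyte genes 3 were measured. Leukocyte genes with a row, measured or not, summed to 64.4 FPKM in the Over19 library and 130 FPKM in the Ctrl library, nearly all of it Cd14. Ptprc was at 0.380 FPKM in the Over19 library and 0.237 FPKM in the Ctrl library.

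Measured genes close to each main keratin, by the distance between their log2(FPKM + 1) values over the 2 libraries, give a scale for these levels. That search left out several classes of gene by name, among them those encoding ribosomal proteins and those without an established name. A gene of the classes left out may lie closer than the ones given here. Nearest to Krt7 were Anxa8, an annexin, at 10.8 FPKM in the Over19 library and 38.2 FPKM in the Ctrl library, then Cfb, which encodes complement factor B, and Slc26a2, a sulphate transporter. Nearest to Krt19 were Spp1, Bsg and Ctnnb1, the last of which encodes beta-catenin and was at 216 FPKM in the Over19 library and 409 FPKM in the Ctrl library. Nearest to Krt8 were mt-Nd3, Ptma and B2m, and nearest to Krt18 were Pkm, Ly6e and Ptma.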

How the data were processed

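RNA of 2 AML12 lines, 1 library each, was sequenced. CASAVA 1.4, TopHat2 and mm9 appear in the submitters' processing notes, which name neither the program behind the expression values nor the use of strand. Per the file headers the authors deposited FPKM. Their table of differences, per the file headers, also holds a p-value, a q-value and a log2 ratio with no pseudocount, in which a very large number stands for infinite ratios. Values in the tables of each library were identical to the joint table. Of 21017 gene identifiers found in GENCODE mouse release M21 (GRCm38), the deposited loci of 20991 (99.9%) overlap it, so deposited loci are given as GRCm38, with starts counted from 1.

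No statistical test between the groups was run. Log2 differences used a pseudocount of 1, which understates those of low genes. Depth was sought in low values of genes with 1 transcript. Of these, 26.8% in the Over19 library and 24.1% in the Ctrl library lay within 0.1 of whole multiples of the most common step, so whole reads were not recovered.

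The keratins and the 11 other gene lists were chosen with earlier results of these data known. Named were all members, up to 4 measured genes of each list with the largest difference, cluster neighbours and the 3 nearest genes, apart from 1 list member that is not reported here; further genes (Dsp, Plec, Krtcap3, Sqstm1, the 14-3-3 genes, Krt8-ps and markers near 0) were named after their values were seen. The log2 differences of the keratins, the counts past the threshold and the list medians were recomputed with other pseudocounts (0.1 and 0.01), another filter (none, or a mean of 5 FPKM), 3 scalings (equal upper quartiles, TPM, or a median difference of 0), and, for the counts, 1.5-fold and 3-fold thresholds, and from the tables of each library. The type I to type II ratio and the summed level were recomputed as TPM, with equal upper quartiles and from the tables of each library. The step that makes the 2-fold calls was checked on simulated data with known changes and a set noise, without the filter on low values. That check covers the computation only and cannot show how reliable the calls of these 2 libraries are. Python 3.11.15, numpy 2.4.6, pandas 2.3.3 and matplotlib 3.10.9 were used.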

Additional observations from a re-analysis of the deposited data

How the results depend on the processing

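The 6 measured keratins kept their direction and their side of the 2-fold rule under the alternatives in which each was computed. The log2 difference ranged from -1.92 to -1.81 for Krt7, from -0.91 to -0.80 for Krt19, from -0.58 to -0.46 for Krt8, from -0.53 to -0.41 for Krt20, from -0.40 to -0.29 for Krt18 and from 0.26 to 0.41 for Krt80. With a 1.5-fold threshold 2 keratins were lower, Krt7 and Krt19, and with a 3-fold threshold 1. Without a filter on low values the family count is 21 by construction. As TPM, with the filter of 1 applied to TPM, the family count was 7. The summed keratin level in the Over19 library was 0.725 of that in the Ctrl library, 0.694 as TPM and 0.669 with equal upper quartiles, a comparison added after the data were seen. Equal upper quartiles lowered the differences by up to 0.12. The medians of 3 lists changed sign: other intermediate filaments at -0.0096 and stratified epithelium at 0.00049 without a filter on low values, which adds genes near 0, and epithelial transcription factors at -0.023 with equal upper quartiles. The desmosome and cytolinker median was -0.19 and the bile duct median -0.28 without that filter. No paired analysis was possible because each group has 1 library. The depth of the libraries is unknown, so the values of genes near 0, such as Krt23, cannot be given a counting error.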
